A study of Homo sapiens with 46 samples.

Results

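The genes described here are 8 members of the aryl hydrocarbon receptor pathway: the receptor AHR, its dimer partner ARNT, its repressor AHRR, and the target genes CYP1A1, CYP1B1, TIPARP, ALDH3A1 and UGT1A6. They were chosen by name, because the plant hormone auxin is an indole and indoles are a known class of receptor ligands. Earlier results of these data were known when they were chosen, so counts of called members are not an independent test. All 8 were found among the 62756 genes of the count table by their symbols, and all 8 were among the 21484 genes that passed the filter on low counts. RNA was sequenced from 46 libraries of DLD-1, an established line from a human colorectal adenocarcinoma. Untagged parental cells were compared with 3 lines in which an endogenous lamin carried an auxin-inducible degron at its N-terminus: Lamin A/C (LAC below), Lamin B1 (LB1) or Lamin B2 (LB2). Cells had 0, 16 or 96 h of 1 mM auxin, dissolved in DMSO, which gave 12 groups. Of these, 10 groups had 4 libraries, and LB1 at 0 h and LB2 at 96 h had 3. Each replicate was a well of a culture plate, so p-values measure the spread between wells of the same line. The labels do not state whether the cells at 0 h received DMSO, so auxin and its solvent cannot be told apart. Whether a tagged line was 1 clone is not given in the sources used here, and each tag is represented by a single line.

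The aryl hydrocarbon receptor is a transcription factor that waits in the cytoplasm bound to HSP90 and co-chaperones. When a flat aromatic ligand such as a dioxin, a polycyclic hydrocarbon or an indole binds, the receptor enters the nucleus, pairs with ARNT and binds DNA at xenobiotic response elements, whose core reads GCGTG. Its best known target is CYP1A1, a cytochrome P450 that oxidises many of the ligands, and AHRR and TIPARP are targets that in turn restrain the receptor. In the gut the pathway responds to plant and microbial indoles.

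The stretches just upstream of the start sites of 3 members are shown because they hold the core to which the receptor and ARNT bind. Sequences and starts are from RefSeq on GRCh38.p14, each stretch ends where the gene begins in the deposited table, and each reads 5′ to 3′ on the strand of its gene. Capitals mark the core GCGTG. Both strands were searched, and the 3 matches shown read on the strand of the gene. The CYP1A1 stretch lies at chr15:74725537-74725778 on the minus strand (242 bases), the AHRR stretch, upstream of the first of its listed starts, at chr5:321464-321713 on the plus strand (250 bases), and the UGT1A6 stretch, also upstream of the first of several, at chr2:233691452-233691606 on the plus strand (155 bases).
CYP1A1: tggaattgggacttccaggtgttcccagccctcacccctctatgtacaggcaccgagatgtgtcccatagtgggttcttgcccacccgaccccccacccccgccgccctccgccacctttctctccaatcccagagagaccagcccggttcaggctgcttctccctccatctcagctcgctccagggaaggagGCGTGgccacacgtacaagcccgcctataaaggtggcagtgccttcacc
AHRR: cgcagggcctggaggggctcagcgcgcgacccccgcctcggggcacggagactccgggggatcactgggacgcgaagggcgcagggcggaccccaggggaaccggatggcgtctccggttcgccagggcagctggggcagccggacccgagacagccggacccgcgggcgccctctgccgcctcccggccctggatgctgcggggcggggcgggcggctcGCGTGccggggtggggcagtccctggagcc
UGT1A6: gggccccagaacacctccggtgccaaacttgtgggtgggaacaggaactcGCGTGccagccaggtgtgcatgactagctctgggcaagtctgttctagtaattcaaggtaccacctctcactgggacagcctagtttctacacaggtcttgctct
RefSeq windows of 250 bases were at hand for 6 of the 8 members, and those of 4 members held the core: CYP1A1, AHRR, UGT1A6 and TIPARP. Some members had several starts, and of their 10 windows 5 held the core. The windows of AHR and ARNT held none, and CYP1B1 and ALDH3A1 had no window in the table used. Over all 35116 RefSeq windows of this length, 32.2% held the core, so finding it near a start is common. The core lay 53 bases before the RefSeq start in CYP1A1, 26 before the first start of AHRR and 196 before the first start of UGT1A6. The window of a second AHRR start held the core 243 and 38 bases before that start, and the window of a second UGT1A6 start held none. In TIPARP the core lay 204 and 138 bases before the first start, on the opposite strand, and the windows of its other starts held none. The longer form TNGCGTG was present in the windows of AHRR and UGT1A6 and in 4.52% of all windows. These are matches of letters, and binding was not measured.

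Library totals ran from 479446 to 37309421 counts with a median of 11533218, and 6 libraries held under 5000000. Levels are CPM, each count relative to the library total after TMM scaling, and for comparing genes with each other they are divided by the gene's length in kilobases. A gene was called at an edgeR adjusted p under 0.05. In 3 libraries the profile stood apart from the other replicates: LAC 0 h replicate 1, LB2 0 h replicate 1 and LB2 16 h replicate 3 correlated with the mean of their group's other libraries at 0.887, 0.872 and 0.858, where the other libraries did at 0.957 to 0.995. Leaving out all 3 ended no call of a member, and the values without them stand beside the calls that use them. In all, 8 libraries correlated best with the mean of another group, LB2 0 h replicate 1 and LB2 16 h replicate 3 among them, and for 3 of the 8 that group was of another line (parental 96 h replicate 1, LB2 0 h replicate 1 and LB2 16 h replicate 1). Epithelial markers were present in every library (EPCAM at 320.5 to 598 CPM, KRT8 at 2791 to 7977), except that VIL1 was at most 4.17 CPM. Markers of other cell types were near 0, with summed levels of at most 0.927 CPM for leukocytes and 0.499 for hepatocytes, 1.255 for endothelial cells and 6.10 for fibroblasts, whose COL1A2 had 0 counts throughout. RNA of the tagged genes LMNA, LMNB1 and LMNB2 was present in all libraries, so RNA does not check the loss of the lamin proteins, which was not analysed here. With bulk RNA, fewer responding cells and less RNA per cell cannot be told apart.

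The targets CYP1A1 and CYP1B1 rose with auxin in every line, whether or not a lamin was tagged, while ALDH3A1 rose in the parental line at 16 h and in LB2 at both times and fell in LB1 at 96 h, and the receptor and its partner were not called in any comparison with 0 h. In the parental line 3 of the 8 members rose at 16 h, where 9.01% of all tested genes were called in either direction and 4.23% were higher, and 2 at 96 h (7.78% of all in either direction, 3.94% higher). In LAC 2 rose at 16 h (1.78% of all, 1.34% higher) and 2 at 96 h (15.4%, 6.74% higher). In LB1 2 rose at 16 h (1.5% of all, 0.987% higher), and at 96 h 1 rose and 1 fell (3.17%, with 1.05% higher and 2.12% lower). In LB2 3 rose at 16 h (1.81% of all, 1.43% higher) and 3 at 96 h (3.55%, 1.95% higher). The median change over the 8 members at 16 h was 0.29 on the log2 scale for parental cells, 0.18 for LAC, 0.31 for LB1 and 0.52 for LB2, where the median over all tested genes lay between -0.04 and -0.01. At 96 h the members' medians were 0.28, 0.24, 0.05 and 0.33 in the same order, and those of all genes lay between -0.03 and 0.04.

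**Figure D1:**
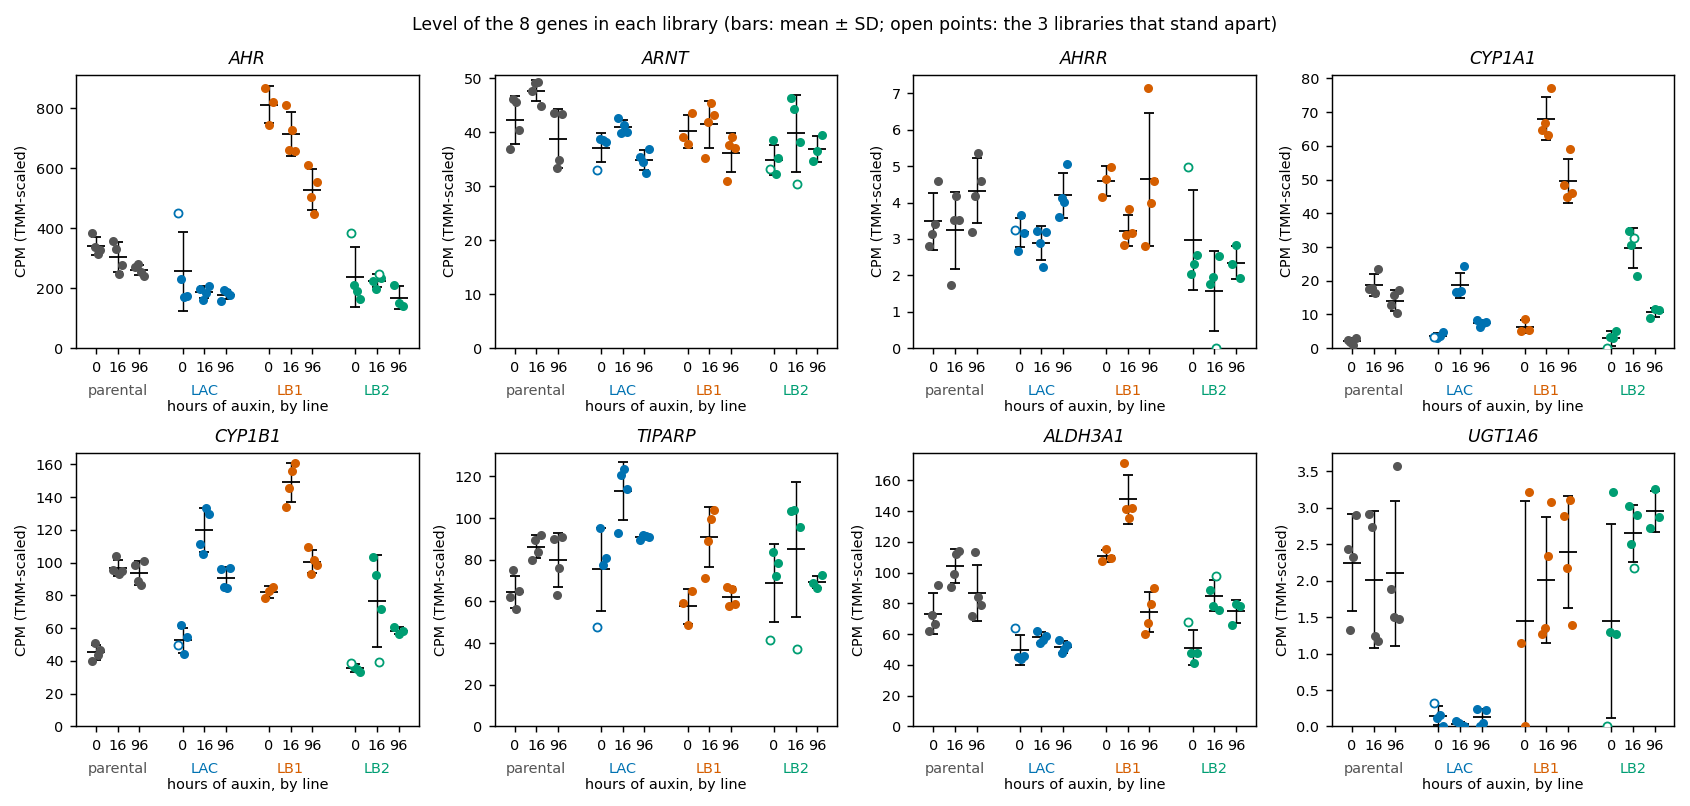
Level of each of the 8 genes in all 46 libraries, in TMM-scaled CPM on a linear axis, by line and hours of auxin, with the mean and SD of each group and open points for the 3 libraries that stand apart. CYP1A1 goes from at most 2.90 CPM in the parental line at 0 h to at least 16.2 at 16 h, and the LB1 group means lie highest for AHR, CYP1A1 and CYP1B1 at each time.

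CYP1A1 (ENSG00000140465.15, chromosome 15, 74719542 to 74725536, minus strand, a gene that no other gene of the table overlaps) responded most. Parental cells held 2.44, 1.82, 0.897 and 2.90 CPM at 0 h, 17.5, 17.9, 16.2 and 23.5 at 16 h, and 12.8, 15.7, 10.5 and 17.4 at 96 h. Every treated library lay above every untreated one. The fold at 16 h was 9.45 (log2 3.24 ± 0.26, SE) with an edgeR adjusted p of 1.36e-12, and at 96 h it was 7.17 (2.84 ± 0.26) with an edgeR adjusted p of 2.38e-10. By p-value CYP1A1 ranked 2 among the 21484 genes at both times in this line.

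In LAC, CYP1A1 began at 3.24, 2.96, 3.65 and 4.68 CPM, reached 16.6, 16.7, 16.8 and 24.3 at 16 h, and stood at 8.50, 6.43, 7.54 and 7.63 at 96 h. The 3 times did not overlap. Its log2 change was 2.35 ± 0.23 at 16 h (edgeR adjusted p 1.62e-09, rank 1 of all genes) and 1.05 ± 0.23 at 96 h (edgeR adjusted p 0.00135). In this line the changes of all genes ran with their GC content (Spearman rho -0.69 at 16 h and -0.63 at 96 h over 9668 genes, against -0.0013 and 0.021 for parental cells). The trend was not confined to LAC, with rho of -0.46 and -0.2 in LB2 and 0.2 and -0.15 in LB1. Between LAC and the parental line at 0 h rho was 0.46. Taking out the trend over GC content and length, the CYP1A1 changes in LAC were 2.40 and 1.17, both called. Without the 3 libraries that stand apart they were 2.33 and 1.05, both called.

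LB1 cells carried the most CYP1A1 at each time, with 5.21, 8.63 and 5.25 CPM at 0 h, 64.7, 66.9, 63.3 and 77.3 at 16 h, and 48.4, 44.7, 59.2 and 46.1 at 96 h. The lowest LB1 library at 16 h held more than the highest library of any other line. The changes were 3.60 ± 0.26 at 16 h (12.1-fold, edgeR adjusted p 3.77e-14) and 3.14 ± 0.26 at 96 h (8.81-fold, edgeR adjusted p 2.11e-12). Both were called under every alternative fitted.

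In LB2 the gene had 0, 3.34, 3.13 and 5.09 CPM at 0 h, where the first value is 0 counts in the library that stands apart, then 34.8, 30.5, 32.6 and 21.3 at 16 h and 9.01, 11.6 and 11.3 at 96 h. The times did not overlap here either. The changes were 3.16 ± 0.25 at 16 h (edgeR adjusted p 1.14e-12) and 1.71 ± 0.26 at 96 h (edgeR adjusted p 1.93e-05). Without the 3 libraries that stand apart they were 2.99 and 1.57, and the call at 96 h was lost when only the libraries of LB2 at 0 and 96 h were fitted (1.72, adjusted p 0.121, within a range of 2.48e-09 to 0.121 over 18 alternatives). That fit called 54 genes in all, where the fit over all groups called 762.

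From 16 to 96 h the CYP1A1 level fell in LAC and LB2 and was not called in the parental line and LB1. The log2 change was -1.31 ± 0.20 in LAC (edgeR adjusted p 1.09e-05) and in LB2 -1.45 ± 0.22 (edgeR adjusted p 4.43e-05), or -1.28 and -1.42 without the 3 libraries that stand apart. Parental cells changed by -0.40 ± 0.20 (edgeR adjusted p 0.671) and LB1 by -0.46 ± 0.18 (edgeR adjusted p 0.0693). The LB1 value was called without LB1 96 h replicate 3 (-0.55, adjusted p 0.0482) and without the 3 libraries that stand apart (-0.46, adjusted p 0.0157). Between these times 0 of the 8 members were called in the parental line, where 57 genes were (0.265% of all). All members called in the tagged lines were lower: 1 in LAC (5.27% of all genes called, 3.22% lower), 3 in LB1 (20.4%, 10.9% lower) and 2 in LB2 (2.5%, 1.45% lower). At an unadjusted p under 0.05 the parental count was 1, ARNT, and DESeq2 called 0. Whether a member's change from 16 to 96 h differed between lines was not tested.

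CYP1B1 (ENSG00000138061.12, chromosome 2, 38066973 to 38109902, minus strand), a related cytochrome P450 that oxidises estrogens and aromatic hydrocarbons, rose in all 4 lines at 16 h by a smaller factor from a higher start. Its parental levels were 40.1, 51.0, 43.4 and 46.9 CPM at 0 h, 95.3, 104, 92.8 and 94.9 at 16 h, and 98.5, 88.7, 86.7 and 101 at 96 h. The 0 h libraries lay below all others, and the treated groups overlapped each other. The changes were 1.09 ± 0.13 and 1.05 ± 0.13 (edgeR adjusted p 5.51e-07 and 4.27e-07). In LAC the means were 52.6 ± 7.50, 120 ± 13.7 and 90.7 ± 6.79 CPM (SD, n = 4), changes of 1.18 ± 0.13 and 0.78 ± 0.13 (edgeR adjusted p 5.06e-08 and 4.07e-05), or 1.14 and 0.76 without LAC 0 h replicate 1 and the other two libraries that stand apart.

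LB1 held 78.2, 83.0 and 85.4 CPM of CYP1B1 at 0 h, 134, 146, 156 and 161 at 16 h, and 109, 92.9, 102 and 98.4 at 96 h. All libraries at 96 h lay above those at 0 h and below those at 16 h. The rise at 16 h was called (0.86 ± 0.14, edgeR adjusted p 0.000499) and the difference at 96 h was not (0.29 ± 0.14, edgeR adjusted p 0.324, 0.0787 to 0.664 over 18 alternatives). In LB2 the level was 38.8, 36.4, 35.1 and 33.1 CPM at 0 h, 104, 92.2, 39.1 and 71.8 at 16 h, and 61.0, 56.6 and 58.1 at 96 h. The third library at 16 h, one of those that stand apart, held 18 counts of the gene and lay close to the 0 h level. The LB2 changes were 1.21 ± 0.14 and 0.71 ± 0.14 (edgeR adjusted p 6.85e-08 and 0.00143), or 1.33 and 0.73 without those libraries. Neither was called when the compared groups alone were fitted (adjusted p 0.274 and 0.0795). Those fits called 4 and 54 genes in all, where the fit over all groups called 388 and 762.

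Between 16 and 96 h the log2 change of CYP1B1 was -0.57 ± 0.13 in LB1 (edgeR adjusted p 0.00129) and -0.49 ± 0.14 in LB2 (edgeR adjusted p 0.0489). In LB2 it did not pass in 10 of 18 alternatives, among them the replicate block and the fits without LB2 16 h replicate 1 (-0.30, adjusted p 0.377) or replicate 2 (-0.39, 0.292), or without LB2 96 h replicate 1 (-0.48, 0.155), 2 (-0.42, 0.259) or 3 (-0.49, 0.168). LAC, at -0.40 ± 0.13 (edgeR adjusted p 0.0505), was called in 8 of 19 alternatives. Both the LB2 and the LAC values were called without the 3 libraries that stand apart (-0.60, adjusted p 0.000622, and -0.38, adjusted p 0.00818). The span of CYP1B1 overlaps RMDN2 and CYP1B1-AS1 on the opposite strand and RMDN2-AS1 on its own. The library kit keeps strand, but whether the counting used strand is not given in the sources used here, so reads of these genes may not be separated. CYP1B1-AS1 was at 4.14 to 19.6 CPM, and it rose in LB2 at 96 h by 1.29 ± 0.22 (edgeR adjusted p 0.000151) and was not called in the other 7 comparisons with 0 h. CYP1B1-AS1 rose, once the 3 libraries that stand apart were left out, in LB2 by 0.83 and 1.5, in LB1 at 96 h by 0.67 and in the parental line at 96 h by 0.54 (edgeR adjusted p 0.00937, 7.42e-07, 0.0157 and 0.0328).

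**Figure D2:**
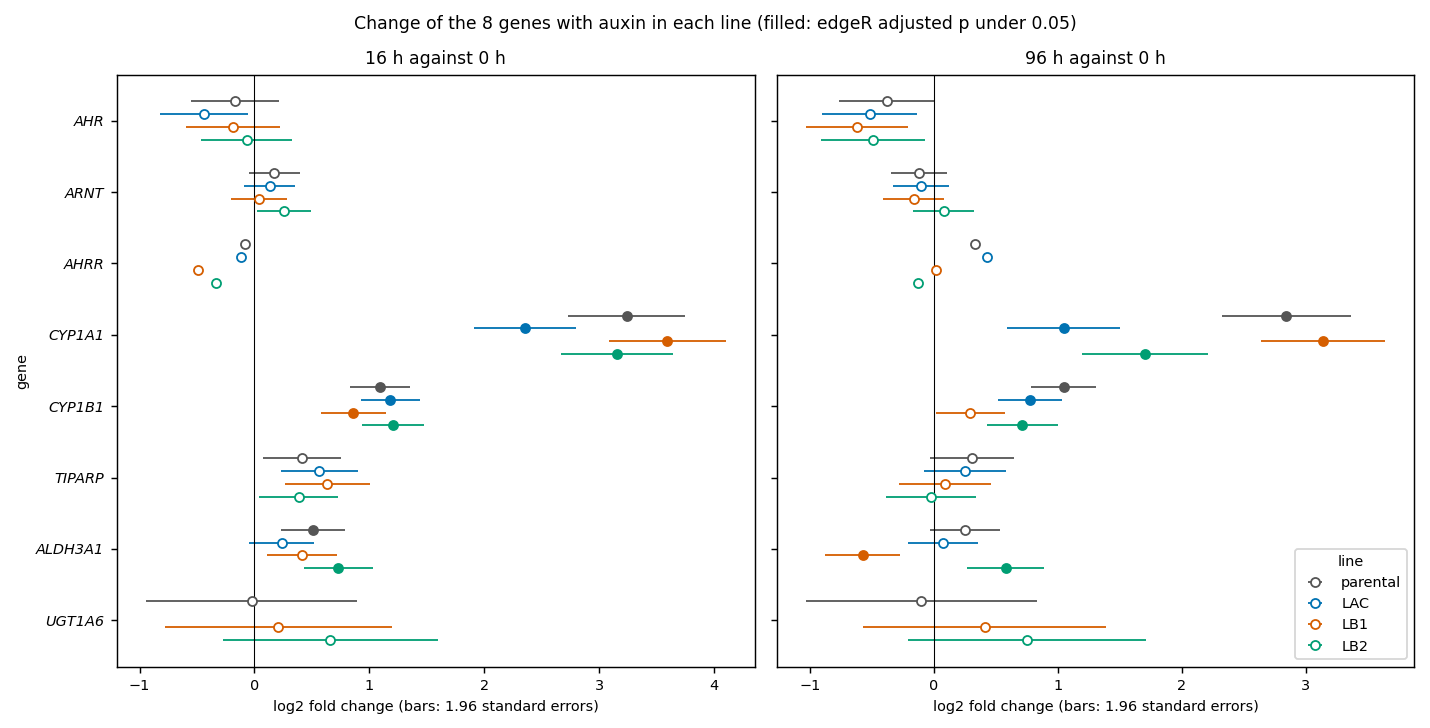
Log2 fold change of each member at 16 h (left) and 96 h (right) against 0 h in each line, with bars for the 95% interval and filled points where the edgeR adjusted p was under 0.05. CYP1A1 lies between 1.05 and 3.60 and is called in all 8 comparisons, ALDH3A1 in LB1 at 96 h is the one called point below 0, AHRR is drawn without bars because its low counts bound the fitted spread, and UGT1A6 in LAC is left out for its low counts.

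TIPARP (ENSG00000163659.13, chromosome 3, 156673235 to 156706770, plus strand) encodes an enzyme that attaches ADP-ribose to the receptor and dampens it. The parental libraries read 62.0, 74.9, 56.5 and 64.8 CPM at 0 h, 79.9, 89.3, 83.5 and 92.1 at 16 h, and 89.7, 63.0, 76.0 and 90.9 at 96 h. At 16 h all 4 lay above the 0 h libraries, and at 96 h the groups overlapped. The log2 differences at 16 h were 0.41 ± 0.17 for parental cells, 0.57 ± 0.17 for LAC, 0.64 ± 0.19 for LB1 and 0.38 ± 0.18 for LB2, with edgeR adjusted p of 0.117, 0.0614, 0.068 and 0.256, so none was called. The 3 libraries that stand apart held 47.9, 41.6 and 37.0 CPM, each the lowest of its group. Without them the parental and LB1 values were called (0.41, adjusted p 0.0103, and 0.63, adjusted p 0.00112), though none of the 3 belongs to these lines. Those of LAC and LB2 were not called (0.40 and 0.35, adjusted p 0.0916 and 0.094). LAC was called without LAC 0 h replicate 2 (0.71, adjusted p 0.0104). At 96 h the differences lay between -0.02 and 0.31 and none was called. From 16 to 96 h TIPARP fell in LB1, from 90.9 ± 14.5 to 62.3 ± 4.80 CPM (SD, n = 4, log2 -0.55 ± 0.17, edgeR adjusted p 0.0181). That call was lost without LB1 16 h replicate 4 (-0.50, adjusted p 0.0573) and without LB1 96 h replicate 2 (-0.51, 0.0659) or replicate 4 (-0.43, 0.0945), and when scaled by library size alone (-0.36, 0.124). In the other lines the TIPARP change over this span was -0.11 ± 0.17 for parental cells, -0.31 ± 0.17 for LAC and -0.41 ± 0.19 for LB2 (edgeR adjusted p 0.958, 0.308 and 0.257). The LB2 libraries held 103, 104, 37.0 and 95.8 CPM at 16 h and 66.6 to 72.5 at 96 h. The LB2 value was called without the 3 libraries that stand apart (-0.53, adjusted p 0.00503), as it was without libraries under 5000000 counts (-0.54, 0.00502) and with voom (-0.51, 0.0011). LAC was called in 4 of 19 alternatives, with adjusted p from 0.0143 to 0.646 over them.

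ALDH3A1 (ENSG00000108602.18, chromosome 17, 19737984 to 19748943, minus strand), an aldehyde dehydrogenase long used as a readout of the receptor, had a positive change at 16 h in every line, not always called. At 96 h its change was negative in LB1 alone. In parental cells it read 62.1, 72.3, 66.7 and 92.1 CPM at 0 h, 91.0, 99.4, 112 and 114 at 16 h, and 71.9, 113, 84.0 and 78.9 at 96 h. The groups overlapped. The rise at 16 h was 0.51 ± 0.14 (edgeR adjusted p 0.0192) and the difference at 96 h was 0.25 ± 0.14 (edgeR adjusted p 0.29). The call at 16 h was lost in 7 of 19 alternatives, among them DESeq2 and the fits without parental 0 h replicate 1 (0.47, adjusted p 0.0543) or 3 (0.47, 0.0612), or without parental 16 h replicate 3 (0.47, 0.0525) or 4 (0.41, 0.0999).

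LB1 cells held 108, 115, and 110 CPM of ALDH3A1 at 0 h, 171, 142, 136 and 142 at 16 h, and 60.4, 67.3, 79.9 and 89.9 at 96 h. Every library at 16 h was above those at 0 h, and every library at 96 h was below them. The value at 16 h was not called (0.41 ± 0.16, edgeR adjusted p 0.162, called without the 3 libraries that stand apart at 0.0323). The fall at 96 h was -0.57 ± 0.15 against 0 h (edgeR adjusted p 0.0229) and -0.99 ± 0.14 against 16 h (edgeR adjusted p 1.67e-06). The latter was called in all 19 alternatives. The former was lost without LB1 0 h replicate 1, 2 or 3 (adjusted p 0.0699, 0.0825 and 0.0988), without LB1 96 h replicate 1 or 2 (0.112 and 0.0973) and with no low-count filter, at changes of -0.46 to -0.62 over 18 alternatives.

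In LB2, ALDH3A1 was at 68.2, 47.7, 41.5 and 47.9 CPM at 0 h, 88.6, 78.0, 97.9 and 76.0 at 16 h, and 66.3, 79.8 and 78.3 at 96 h. Only the first 0 h library, which stands apart, reached the treated groups. The rises were 0.73 ± 0.15 and 0.58 ± 0.16 (edgeR adjusted p 0.00458 and 0.0242), or 0.81 and 0.70 without the 3 libraries that stand apart. Without LB2 0 h replicate 2 or 3 the latter had adjusted p of 0.0665 and 0.107, and without LB2 96 h replicate 2 or 3 it had 0.0883 and 0.115. With the compared groups alone neither LB2 rise was called (adjusted p 0.705 and 0.277), in fits that called only 4 and 54 genes in all. LAC had the lowest mean ALDH3A1 at each time, with 49.8 ± 9.57, 58.0 ± 3.41 and 51.8 ± 3.76 CPM (SD, n = 4), and neither of its differences from 0 h was called (0.24 and 0.08, edgeR adjusted p 0.359 and 0.789). Once the trend over GC content and length was taken out, both LAC values were called (0.44, adjusted p 0.00879, and 0.41, adjusted p 0.00199). ALDH3A1 has the highest GC content of the members, 59.5%.

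UGT1A6 (ENSG00000167165.19, chromosome 2, 233691607 to 233773300, plus strand), an enzyme that joins glucuronic acid to phenols, was nearly absent from the LAC line at every time and was not called with auxin in any line. In LAC the 12 libraries held 16 counts of it in all, at 0 to 0.324 CPM. Parental libraries held 283 counts at 1.18 to 3.57 CPM, LB1 331 at 0 to 3.22 and LB2 368 at 0 to 3.26. No LAC library reached the lowest parental one, and the zeros in the other lines were LB1 0 h replicate 2 and LB2 0 h replicate 1, where the depth allows up to 2.06 and 1.58 CPM (3 counts, counting error only). At 0 h the difference between LAC and parental was -4.29 ± 0.71 in log2 terms (edgeR adjusted p 3.12e-05), from 5 and 61 counts. It was called in all 18 alternatives that tested it, at -4.67 to -3.78, and was -4.52 without the 3 libraries that stand apart. With the compared groups alone UGT1A6 did not pass the low-count filter.

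UGT1A6 shares its last exons with the other genes of the UGT1A cluster, which differ in their first exon, and 11 further genes of the table overlap it on its strand. How reads in the shared exons were assigned is not given in the sources used here. UGT1A8, UGT1A9 and UGT1A10 had 0 counts in all 46 libraries. Over the 12 LAC libraries, UGT1A1 had 32 counts, UGT1A3 7, UGT1A4 8, UGT1A5 46 and UGT1A7 4, where the 12 parental libraries, with fewer counts in total, had 149, 22, 33, 105 and 46. UGT1A5 was lower in LAC than in the parental line at 0 h (-2.34 ± 0.78, edgeR adjusted p 0.0326, or -2.22 and 0.0497 without the 3 libraries that stand apart), and UGT1A1 rose in the parental line at 96 h (1.99 ± 0.66, edgeR adjusted p 0.0495). Both were named after their values were seen.

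**Figure D3:**
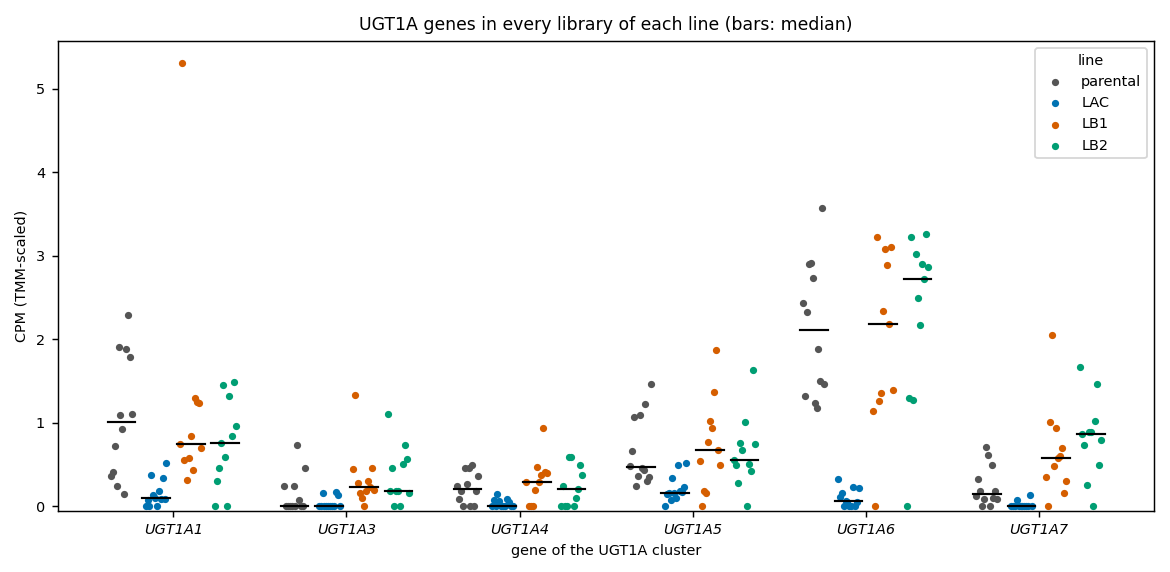
TMM-scaled CPM of 6 genes of the UGT1A cluster in every library, grouped by line over the 3 times, with bars at the median. UGT1A6 in LAC stays at or below 0.324 CPM, under the lowest parental library at 1.18, and the highest single point is UGT1A1 in 1 LB1 library.

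AHR (ENSG00000106546.14, chromosome 7, 16916359 to 17346152, plus strand) was the most abundant member per length. In the parental line at 0 h its mean was 42.3 CPM per kilobase, followed by ALDH3A1 at 18.9, TIPARP at 13.4, CYP1B1 at 7.58, ARNT at 6.55, CYP1A1 at 0.599, UGT1A6 at 0.436 and AHRR at 0.368. CYP1A1, UGT1A6 and AHRR overlapped in their libraries' values, as did CYP1B1 and ARNT, and the other neighbours in this order did not. In LB1 at 16 h CYP1A1 reached 20.2 CPM per kilobase, beside 24.9 for CYP1B1 and 18.9 for TIPARP. The span of AHR overlaps 6 other genes of the table, 4 on its own strand, each at no more than 24.1 CPM in any library. Reads of these genes may not be separated from those of AHR.

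The AHR level was 384, 338, 314 and 326 CPM in the parental line at 0 h, 356, 332, 248 and 278 at 16 h, and 270, 280.1, 256 and 241 at 96 h. LB1 held 869, 745 and 822 at 0 h, 811, 661, 726 and 657 at 16 h, and 610.1, 504, 447 and 554 at 96 h. In both lines all 96 h libraries lay below all 0 h libraries. The differences at 96 h were -0.38 ± 0.20 in the parental line and -0.62 ± 0.21 in LB1 (edgeR adjusted p 0.236 and 0.0976), so neither was called. Without the 3 libraries that stand apart, none of which belongs to these lines, both were (-0.37, adjusted p 0.0248, and -0.62, adjusted p 0.000614).

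In LAC and LB2 a single untreated library carried most of the spread. LAC read 451, 231, 172 and 172 CPM at 0 h against 157 to 206 after auxin, and LB2 read 383, 211, 192 and 163 at 0 h against 142 to 246. The first value of each belongs to a library that stands apart. The differences at 96 h were -0.52 ± 0.20 and -0.49 ± 0.21 (edgeR adjusted p 0.0651 and 0.231), and without those libraries -0.09 and -0.19. The LAC value was called without LAC 0 h replicate 3 (-0.66, adjusted p 0.0226) or replicate 4 (-0.64, adjusted p 0.0232). AHR has the lowest GC content of the members, 38.2%, and after that trend was taken out its LAC value at 96 h was -0.99 (adjusted p 0.00724).

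ARNT (ENSG00000143437.21, chromosome 1, 150809713 to 150876708, minus strand), the shared partner of several related factors, stayed between 30.5 and 49.3 CPM in all 46 libraries. Its largest difference from 0 h was 0.25 ± 0.12 in LB2 at 16 h (edgeR adjusted p 0.274). AHRR (ENSG00000063438.20, chromosome 5, 321714 to 438291, plus strand), which competes with the receptor for ARNT, was at 0 to 7.16 CPM, with 2015 counts over all libraries. Its 0 came from LB2 16 h replicate 3, the library of the lowest depth. Parental means were 3.48, 3.24 and 4.33 CPM (SD 0.778, 1.05 and 0.901, n = 4), and none of its 8 differences from 0 h was called (edgeR adjusted p 0.297 to 0.991, log2 differences from -0.49 to 0.43). AHRR shares its strand and span with the readthrough gene PDCD6-AHRR, which had 85 counts in all.

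The lines differed in these genes before auxin was added. LB1 was higher than the parental line at 0 h in 4 of the 8 members, where 4.05% of all genes were called in either direction and 1.62% higher. These were AHR at 812 ± 62.7 against 340.5 ± 30.5 CPM (log2 1.25 ± 0.21, edgeR adjusted p 3.68e-05), CYP1A1 at 6.36 ± 1.97 against 2.01 ± 0.866 (1.51 ± 0.31, 0.00091), CYP1B1 at 82.2 ± 3.68 against 45.4 ± 4.69 (0.86 ± 0.14, 4.33e-05) and ALDH3A1 at 111 ± 4.05 against 73.3 ± 13.2 (0.60 ± 0.16, 0.0135), each as mean ± SD over 3 and 4 libraries. For each of the 4 every LB1 library lay above every parental one. The ALDH3A1 call was lost without parental 0 h replicate 3 (0.56, adjusted p 0.0522) or LB1 0 h replicate 3 (0.61, adjusted p 0.0562).

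In LAC at 0 h, 1 member was higher and 2 were lower (15.8% of all genes were called, 8.71% higher and 7.08% lower), and in LB2 1 was lower (8.21%, 4.3% lower). CYP1A1 was higher in LAC by 0.88 ± 0.30 (edgeR adjusted p 0.0359), a call lost in 9 of 19 alternatives, among them the fits without parental 0 h replicate 2 (0.88, adjusted p 0.081) or 3 (0.69, 0.132) and without LAC 0 h replicate 3 (0.88, 0.0551) or 4 (0.73, 0.13). The ALDH3A1 difference was -0.57 ± 0.15 in LAC (edgeR adjusted p 0.00491) and -0.54 ± 0.15 in LB2 (edgeR adjusted p 0.014), and with the compared groups alone neither was called (0.0621 and 0.157). The ALDH3A1 values were -0.68 and -0.64 without the 3 libraries that stand apart, and the CYP1A1 value in LAC was 0.91, all called. The LB2 call was lost without parental 0 h replicate 4 (-0.42, adjusted p 0.0997) and without LB2 0 h replicate 2 (-0.52, 0.0511) or 3 (-0.45, 0.085). The AHR difference was -0.42 in LAC and -0.54 in LB2 (edgeR adjusted p 0.143 and 0.0841), and each was called in 6 of 19 alternatives. It was -0.79 without LAC 0 h replicate 1 (adjusted p 0.000677) and -0.82 without LB2 0 h replicate 1 (adjusted p 0.0015), and with every library kept both were called when scaled by library size alone (-0.61, adjusted p 0.023, and -0.62, adjusted p 0.0334). Without the latter library CYP1A1 in LB2 was called too (0.88, adjusted p 0.0387, against 0.72 and 0.163 with it). Without all 3 libraries that stand apart TIPARP was called higher in LAC (0.40, adjusted p 0.0158) and CYP1B1 lower in LB2 (-0.34, adjusted p 0.0461). After the GC and length trend was taken out, the AHR difference in LAC was -0.07 (adjusted p 0.899).

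Whether a line responded differently from untagged cells was tested as the difference of its change from the parental change. The tagged lines share the parental libraries in these tests. At 16 h 0 of the 8 members were called in LAC (0.116% of all genes were), 0 in LB1 (0.0279%) and 0 in LB2 (0.00465%). At an unadjusted p under 0.05 only CYP1A1 in LAC passed at that time (-0.89 ± 0.36, p 0.0163 in edgeR, adjusted p 0.293), and DESeq2 called 0 in all 3. The 95% intervals for CYP1A1 ran from -1.58 to -0.19 in LAC, from -0.38 to 1.09 in LB1 and from -0.80 to 0.63 in LB2.

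At 96 h the CYP1A1 rise was smaller in LAC than in parental cells, with a log2 difference of -1.79 ± 0.36 (a ratio of 0.288, edgeR adjusted p 0.00233). It was the 1 member called there, where 7.4% of all genes were, 4.3% of all in the lower direction. This was called in all 27 alternatives, at -2.03 to -1.59 and adjusted p up to 0.0104, and was -1.81 without the 3 libraries that stand apart. Mean CYP1A1 levels in LAC and parental cells were 3.63 and 2.01 CPM at 0 h (175 and 59 counts in all) and 7.53 and 14.1 at 96 h. The difference of the changes thus rests in part on the higher LAC level at 0 h. LB2 gave -1.14 ± 0.38 (edgeR adjusted p 0.172, 0 members called, 0.368% of all genes), or -1.29 (adjusted p 0.0355) without the 3 libraries that stand apart. LB1 gave 0.30 ± 0.38 for CYP1A1 (95% interval -0.44 to 1.04, edgeR adjusted p 0.723). In LB1 2 other members were called, both lower (1.04% of all genes called, 0.317% lower). CYP1B1 differed from the parental response by -0.75 ± 0.19 (edgeR adjusted p 0.0408) and ALDH3A1 by -0.83 ± 0.21 (edgeR adjusted p 0.039). These 2 calls were lost in 14 and 12 of 26 alternatives, with adjusted p up to 0.149 and 0.116. Leaving out any 1 of the LB1 0 h libraries ended both (0.0573, 0.08 and 0.149 for CYP1B1 and 0.0544, 0.081 and 0.102 for ALDH3A1). So did leaving out LB1 96 h replicate 2 (0.116 each), parental 0 h replicate 1 (0.0935 and 0.0734) or 3 (0.0633 and 0.0664) or parental 96 h replicate 2 (0.0597 and 0.0971). CYP1B1 alone was lost without LB1 96 h replicate 3 (0.0509) or 4 (0.0784), parental 0 h replicate 4 (0.0653) or parental 96 h replicate 1 (0.063) or 4 (0.0671). ALDH3A1 alone was lost without LB1 96 h replicate 1 (0.0915) or parental 96 h replicate 3 (0.0505).

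**Figure D4:**
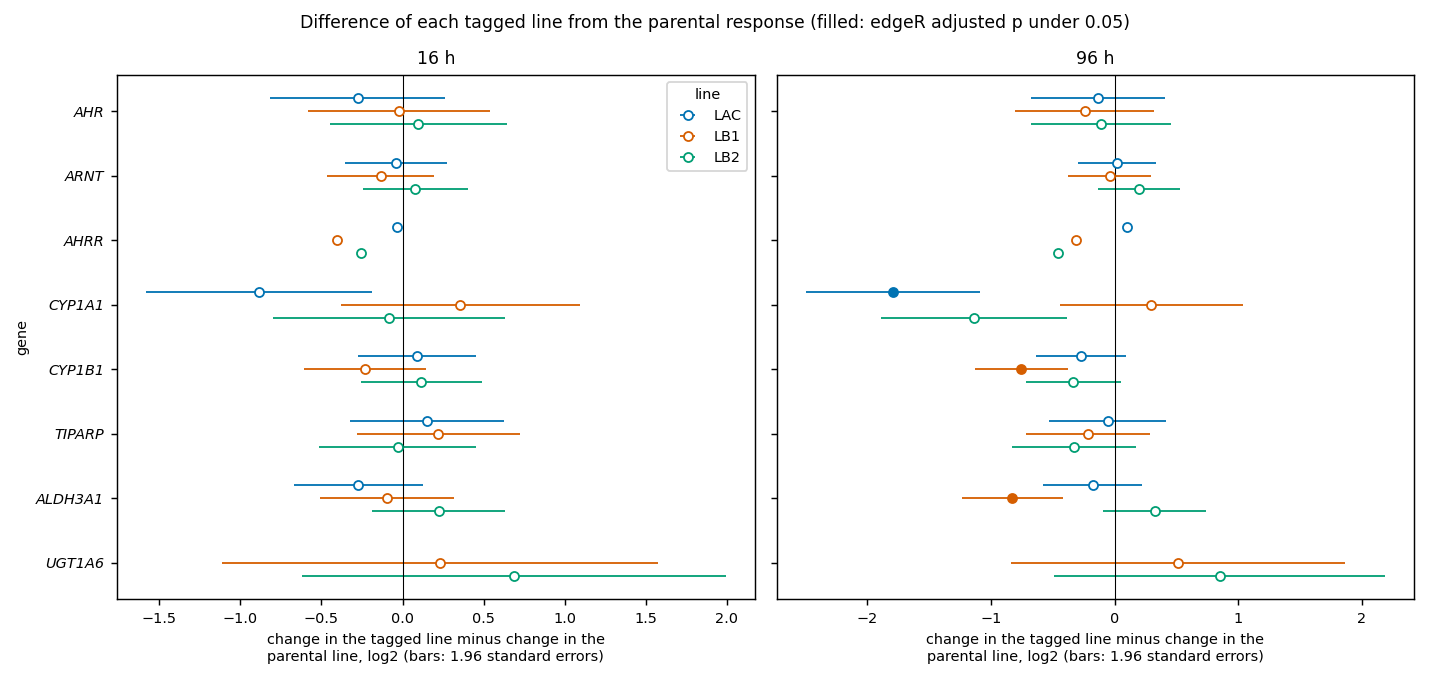
Change in each tagged line minus the change in the parental line at 16 h (left) and 96 h (right), on the log2 scale, with bars for the 95% interval and filled points where the edgeR adjusted p was under 0.05. The 3 filled points are at 96 h, CYP1A1 in LAC at -1.79 and CYP1B1 and ALDH3A1 in LB1 at -0.75 and -0.83, AHRR has no bars, and UGT1A6 in LAC is left out for its low counts.

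A list of 28 further genes of the pathway, of which 20 passed the filter, was called in fewer of its genes than not in every comparison with 0 h. Of the 20, 1 rose and 0 fell in the parental line at 16 h and 3 and 0 at 96 h, where 9.01% and 7.78% of all genes were called in either direction. In LAC the counts were 3 and 0, then 5 and 1 (1.78% and 15.4% of all). In LB1 they were 1 and 0, then 1 and 2 (1.5% and 3.17%), and in LB2 1 and 0, then 2 and 0 (1.81% and 3.55%). The median change of the 20 at 16 h was 0.21 for parental cells, 0.30 for LAC, 0.16 for LB1 and 0.18 for LB2. At 96 h it was 0.25, 0.47, -0.10 and -0.02, beside medians over all genes of -0.03, 0.03, 0.04 and -0.00242. The 8 that did not pass were IDO1, CYP1A2, SERPINB2, UGT1A3, UGT1A4, UGT1A8, UGT1A9 and UGT1A10, so CYP1A2, the liver-typical relative of CYP1A1, was too low to test. HSP90AA1, HSP90AB1 and PTGES3, which encode HSP90 and a co-chaperone, were not called in any comparison with 0 h.

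ABCG2, a pump that exports drugs and a known target of the receptor, rose in 6 of the 8 comparisons with 0 h. Its parental mean went from 8.54 ± 1.53 to 10.9 ± 0.676 and 18.9 ± 3.38 CPM (SD, n = 4), a change of 1.15 ± 0.19 at 96 h (edgeR adjusted p 8.22e-05). Tagged lines rose at 96 h as well, LAC by 0.99, LB1 by 0.97 and LB2 by 0.96 (edgeR adjusted p 0.000139, 0.00339 and 0.00496), and at 16 h 0.86 in LB1 and 0.96 in LB2 (0.0255 and 0.00878). ABCG2 in LB1 was lost without LB1 0 h replicate 1 at both times (0.70 and 0.81, adjusted p 0.227 and 0.0942), and at 16 h also without LB1 0 h replicate 3 (0.109) or LB1 16 h replicate 2 (0.0768). Scaling by library size alone (0.76, adjusted p 0.0539) and fitting the compared groups alone also ended the LB1 call of ABCG2 at 16 h. In LB2 at 16 h it was lost without LB2 0 h replicate 3 (0.0716) or LB2 16 h replicate 1 (0.109), and with the compared groups alone at both times (0.705 and 0.156). Those fits of the LB2 groups alone called only 4 and 54 genes in all. The rises in LB2 were 0.92 and 0.89 without the 3 libraries that stand apart, and that in LAC at 96 h was 0.86. ARNT2, a paralog of ARNT, rose at 96 h in the parental line (0.53 ± 0.14), LAC (0.75 ± 0.14) and LB2 (0.81 ± 0.15), with edgeR adjusted p of 0.0142, 0.000202 and 0.000651, and gave 0.02 ± 0.15 in LB1 (0.984). The ARNT2 call in LB2 was lost with the compared groups alone (0.81, adjusted p 0.134, 54 genes called in all). Without the 3 libraries that stand apart ARNT2 rose by 0.66 in LAC and 0.90 in LB2 at 96 h, and also in the parental line (0.42, adjusted p 0.0116) and LB2 (0.43, adjusted p 0.0449) at 16 h.

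NQO1, a quinone reductase that the receptor and NFE2L2 both induce, rose in LAC, from 148 ± 28.6 to 277 ± 27.9 and 301 ± 19.0 CPM (SD, n = 4, 0.90 and 1.02, edgeR adjusted p 1.33e-05 and 1.03e-07). It fell in LB1 at 96 h (-0.71 ± 0.13, edgeR adjusted p 0.000498), and both differed from the parental response at 96 h (0.72 ± 0.18 and -1.01 ± 0.18, edgeR adjusted p 0.0103 and 0.00326). The NQO1 call in LAC at 16 h was lost with the compared groups alone (adjusted p 0.0866, 11 genes called in all), and its LAC response at 96 h with no low-count filter (0.0588). LAC started lower in NQO1 than the parental line (-1.13 ± 0.13, edgeR adjusted p 8.09e-09). Its LAC changes were 0.77 and 0.91 without the 3 libraries that stand apart, its LAC response at 96 h 0.60 and its LAC difference at 0 h -0.9955, all called. SLC7A5, an amino acid transporter, rose in the parental line at 16 h (0.56 ± 0.18, edgeR adjusted p 0.0413) and fell at 96 h in LAC (-0.59 ± 0.18, 0.0206) and LB1 (-1.06 ± 0.19, 0.000321). The parental SLC7A5 call was lost without any 1 of 6 libraries, 0 h replicates 1, 3 and 4 and 16 h replicates 1, 3 and 4 (adjusted p 0.0539 to 0.139), and the LAC call without LAC 0 h replicate 3 (0.0625) or LAC 96 h replicate 2 (0.0935) or 3 (0.0815). DESeq2 (adjusted p 0.0585), RLE scaling (0.0692) and scaling by library size alone (0.0732) ended the parental SLC7A5 call too. EREG, a growth factor of the EGF family, rose in LAC (0.81 and 0.64, edgeR adjusted p 0.00984 and 0.00883). Both EREG calls were lost without LAC 0 h replicate 1 (0.65 and 0.47, adjusted p 0.0975 and 0.0843), and that at 16 h without LAC 16 h replicate 3 (0.0613) or 4 (0.0598). Without all 3 libraries that stand apart they were called (0.63 and 0.48, adjusted p 0.0176 and 0.0191), as was SLC7A5 in LAC at 96 h (-0.60, adjusted p 0.00534). After the same trend was taken out, the LAC values at 96 h were not called for SLC7A5 (-0.24, adjusted p 0.333) or EREG (0.27, adjusted p 0.0741).

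The genes whose group means followed CYP1A1 most closely over the 12 groups, among 13998 with a symbol and a mean of at least 1 CPM, were POLR1D (Pearson r 0.916 on log2(CPM + 1)), RPUSD4 (0.915), ZDHHC3 (0.910), ACP1 (0.901) and LIMS1 (0.901). Their ranges were narrower than that of CYP1A1: POLR1D lay between 79.9 CPM in the parental line at 0 h and 120 in LB1 at 16 h. Among the members CYP1B1 was closest, at 0.829. These values describe 12 groups that share lines and libraries.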

How the data were processed

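RNA of 46 DLD-1 libraries in 12 groups was analysed from a table of raw read counts per gene, deposited by the authors. Per the submitters' processing notes, STAR 2.7.10a, SAMtools 1.10, featureCounts 1.6.4, deepTools 3.4.5 and DESeq2 1.40.2 were used with GRCh38, and the file header names nf-core/rnaseq 1.4.2. The annotation release and the strand setting of the counting are not given in the sources used here. Of the table, 1 gene broken over 3 lines was left out. The 62756 genes were reduced to 21484 with edgeR 4.0.16 (R 4.3.3, filterByExpr), scaled by TMM and fitted in 1 quasi-likelihood model over all 12 groups, with 21 comparisons, each adjusted over all tested genes by the Benjamini-Hochberg method and called under 0.05. The fit was also run on simulated counts with known changes. These held no line differences, GC trend or libraries that stand apart, so that run does not check such effects. Library totals of 479446 to 37309421 counts set the precision of low genes, and counting limits cover counting error only. No 2 replicates were alike within sampling noise (66 pairs, chi-square per degree of freedom at least 3.97).

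Alternatives were other scalings, no filter, DESeq2 1.42.0, voom with sample weights (limma 3.58.1), a replicate block, removal of a GC and length trend, the compared groups alone, no library under 5000000 counts and each library left out. Leaving out the 3 libraries that stand apart was chosen after seeing the data. Same-numbered libraries deviated together in every pair only for LAC at 16 and 0 h (correlations 0.12 to 0.67), where the block changed no call of a member. In the other comparisons not every pair did, with correlations from -0.54 to 0.64. These values do not settle whether replicates there are paired. The members, the pathway list and the markers were chosen with earlier results of these data known. Pathway genes were named where called in at least 2 of the 8 comparisons with 0 h, and likeness to CYP1A1 was ranked by Pearson r over group means of log2(CPM + 1). UGT1A1 and UGT1A5 were named after their values were seen.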

Additional observations from a re-analysis of the deposited data

Results flagged for a closer look

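Among 80 groups of 4 libraries, over the 8 members, 4 held 1 library far from the other 3, where chance gives about 1 in 20. ARNT in LAC 0 h replicate 1 was at 33.02 CPM, with the others at 38.24 to 38.71. CYP1A1 in LAC 16 h replicate 4 was at 24.34 CPM, with the others at 16.64 to 16.83. TIPARP in LB2 16 h replicate 3 was at 36.98 CPM, from 17 counts, with the others at 95.76 to 103.7. ALDH3A1 in LAC 0 h replicate 1 was at 64.1 CPM, with the others at 44.16 to 45.7. LAC 0 h replicate 1 and LB2 16 h replicate 3 are among the 3 whose whole profile stands apart.

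Responses that differed between a tagged line and the parental line by the edgeR test of the difference itself were CYP1A1 in LAC at 96 h (-1.79 on the log2 scale, adjusted p 0.00233), CYP1B1 in LB1 at 96 h (-0.754, adjusted p 0.0408) and ALDH3A1 in LB1 at 96 h (-0.825, adjusted p 0.039). In LAC each of the 4 libraries at 96 h lay below each of the 4 parental ones, 6.43 to 8.50 against 10.5 to 17.4 CPM of CYP1A1. At 0 h each LAC library lay above each parental one, 2.96 to 4.68 against 0.897 to 2.90 CPM.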

How the results depend on the processing

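Of 168 results (8 members in 21 comparisons), 36 were called, 21 of these under every alternative fitted, 47 changed call under at least 1 of the 57 alternatives, and 0 called results changed direction. The number of members called moved as follows, each from the count in the report to the count under the alternative. With the compared groups alone it went from 3 to 1 for LB2 at 16 h, 3 to 0 for LB2 at 96 h, 1 to 3 for LAC from 16 to 96 h, 3 to 5 for LB1 and 2 to 1 for LB2 over the same span, and at 0 h from 3 to 0 for LAC, where UGT1A6 did not pass the filter and was not tested, and 1 to 0 for LB2. With voom it went from 2 to 4 for the parental line at 96 h, 2 to 4 for LAC and LB1 at 16 h, 3 to 5 for LB2 at 16 h, 1 to 5, 3 to 5 and 2 to 4 for LAC, LB1 and LB2 from 16 to 96 h, 0 to 1 for the LB2 response at 96 h, and at 0 h from 3 to 5 for LAC and 1 to 2 for LB2. With the GC and length trend removed it went from 2 to 4 for LAC at 96 h and 1 to 3 for LAC from 16 to 96 h, and together with the replicate block from 2 to 5 for LAC at 16 h, 2 to 4 at 96 h and 1 to 4 from 16 to 96 h. The replicate block alone gave 2 for LAC and 1 for LB2 from 16 to 96 h, and 2 for LB2 at 0 h, and moved no other count by over 1.5 times. At 0 h it called AHR lower than in the parental line in LAC (-0.47, adjusted p 0.0476) and LB2 (-0.57, adjusted p 0.0245). With no low-count filter it went to 1 for LB1 at 96 h, 1 for LB2 from 16 to 96 h, 0 for the LB1 response at 96 h and 0 for LB2 at 0 h. With scaling by library size alone these were 1 for LB2 from 16 to 96 h, 0 for the LB1 response at 96 h and 3 for LB2 at 0 h, and with RLE scaling 1 for LB2 from 16 to 96 h and 1 for the LB1 response at 96 h. DESeq2 gave 2 for LAC from 16 to 96 h and 2 for LB2 at 0 h. Without libraries under 5000000 counts the counts were 4 for LB1 at 16 h, 2 for LAC and 5 for LB1 from 16 to 96 h, and at 0 h 5 for LAC and 2 for LB2. Without the 3 libraries that stand apart they were 4 for LB1 at 16 h, 2 for LAC and 5 for LB1 from 16 to 96 h, 1 for the LB2 response at 96 h, and at 0 h 5 for LAC and 4 for LB2. The number of all genes called moved as well. Voom raised it from 383 to 2789 for LAC and from 388 to 2462 for LB2, both at 16 h. Fits of the compared groups alone lowered it from 762 to 54 for LB2 at 96 h. Such fits raised it from 1133 to 3805 for LAC from 16 to 96 h. For LAC at 96 h, taking out the GC and length trend lowered it from 3304 to 2835, while the member count rose. The cause of these moves was not tested.

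Leaving out 1 library at a time gave 2 to 3 called members for the parental line at 16 h and 2 in each fit at 96 h, 2 to 3 for LAC at 16 and 96 h, 2 for LB1 at 16 h and 1 to 2 at 96 h, and 3 for LB2 at 16 h and 2 to 3 at 96 h. From 16 to 96 h it gave 0 for the parental line, 1 for LAC, 2 to 4 for LB1 and 1 to 2 for LB2. For the responses it gave 0 in LAC at 16 h and 1 at 96 h, 0 in LB1 at 16 h and 0 to 2 at 96 h, and 0 in LB2 at both times. At 0 h it gave 2 to 4 for LAC, 3 to 4 for LB1 and 0 to 3 for LB2. Depth limits AHRR and UGT1A6 most, where a count of 0 allows up to 6.26 CPM in the shallowest library.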
